A study of Mus musculus with 155 samples.

Results

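The 8 genes described here are Dcx, Tubb3, Stmn2, Cd24a, Nrep, Igfbpl1, Tiam2 and Islr2, a group named for neuroblast migration and the cytoskeleton. They were chosen by symbol, and all 8 were found among the 3422 genes of the deposited table. Each gene was followed cell by cell in 155 single mouse cells, 1 cell per sample, sequenced by SMART-Seq2, a full-length protocol that starts from polyadenylated RNA. The cells were sorted as live singles from dissected subventricular zone (SVZ) and corpus callosum of mice aged 8 to 10 weeks.

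OligNBL (40 cells, positive for both reporters) came from a cross of CB6-Tg(Gad1-EGFP)G42Zjh/J with Olig2-tdTomato TH39Gsat/Mmcd and, by the labels, from demyelinated mice 6 days after an injection of LPC, a lipid used to strip myelin. OL (22 cells, Tomato, strain Olig2-tdTomato TH39Gsat/Mmcd) and NBL (27 cells, GFP, strain CB6-Tg(Gad1-EGFP)G42Zjh/J) came from mice with the same lesion. O (29 cells, Tomato) and NB (37 cells, GFP) came from healthy mice of the corresponding reporter strains. The titles of the OligNBL cells carry a control mark, against the labels' lesion state, and the labels' state is used. Reporter, gate and strain change together in every comparison between gates and cannot be told apart. The Gad1-EGFP transgene marks cells of the GABAergic lineage and the Olig2-tdTomato transgene cells of the oligodendrocyte lineage, and cells were sorted by reporter fluorescence, so each population is what its gate let through. Transcript of the Tomato reporter ranked within the top 500 genes of a cell just once in 40 OligNBL, 0 times in 22 OL, 2 times in 27 NBL, 1 time in 29 O and 1 time in 35 NB cells, so the Tomato gate cannot be checked from it. Each condition had 5 mice, but no cell is tied to a mouse, so each population is 1 sample, no p-value was computed, and every difference below lacks a replicate check.

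Neuroblasts are born in the SVZ and travel in chains towards the olfactory bulb. They extend a leading process and pull the nucleus after it along microtubules, while actin remodelling under small GTPases moves the growth cone. Dcx and Tubb3 are the usual histological markers of these cells, and Cd24a is used to sort them. After demyelination, cells of the same niche can enter the corpus callosum.

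On GRCm38 with GENCODE release 21 the genes lie on separate chromosomes. Dcx is at chrX:143855842-143933311 (minus strand), Tubb3 at chr8:123411424-123422015 (plus), Stmn2 at chr3:8509360-8561606 (plus) and Cd24a at chr10:43578284-43584265 (plus). Igfbpl1 is at chr4:45809468-45826923 (minus), Tiam2 at chr17:3326573-3531344 (plus) and Islr2 at chr9:58196297-58204319 (minus). Promoter sequence from RefSeq (GRCm38.p6) was held for 4 of the 8 genes, with 2 entries for Dcx, 1 for Tubb3, 3 for Tiam2 and 3 for Islr2. Windows of 250 bases before the start were searched on both strands for the E-box CANNTG, the SOX core ACAAT, the homeobox core TAATTA and the TATA box TATAAA. Of 32851 promoter windows of this length, 66.2% held the E-box, 27.7% the SOX core, 4.84% the homeobox core and 12.4% the TATA box. The Dcx window held 1 TATA box and 1 homeobox core, the Tubb3 window held 3 SOX cores, and the first Islr2 window held no match. Dcx, Tubb3 and Islr2 are shown because OligNBL cells carried them in different combinations. Only bases before the most upstream annotated start are printed, with matches in capitals; ATTGT is ACAAT on the other strand.
Dcx, chrX:143933312-143933469, minus strand: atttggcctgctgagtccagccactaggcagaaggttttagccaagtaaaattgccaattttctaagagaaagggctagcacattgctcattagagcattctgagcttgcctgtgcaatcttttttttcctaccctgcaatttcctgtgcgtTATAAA
Tubb3, chr8:123411303-123411423, plus strand: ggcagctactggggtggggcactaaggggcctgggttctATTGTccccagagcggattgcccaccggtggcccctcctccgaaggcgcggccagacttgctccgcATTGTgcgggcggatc
Islr2, chr9:58204320-58204569, minus strand: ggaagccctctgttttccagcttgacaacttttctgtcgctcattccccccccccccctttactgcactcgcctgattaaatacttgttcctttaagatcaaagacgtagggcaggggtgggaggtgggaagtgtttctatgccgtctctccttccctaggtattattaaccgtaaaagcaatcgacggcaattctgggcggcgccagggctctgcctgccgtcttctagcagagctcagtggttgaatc

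The values are a normalized signal with nearly equal totals in all cells (5155900 to 5161090), so depth cannot be read from them. The median cell had 1397 genes above 0 in OligNBL, 950.5 in OL, 1161 in NBL, 1187 in O and 1114 in NB. A level is log2(value + 1), which understates differences of low genes and does not allow 1 gene to be set against another. A gene was counted as present in a cell when it was above 0 and among the 500 highest genes of that cell. In 2 NB cells fewer than 500 genes were above 0, and these cells were left out of shares of present genes. By this definition 14.6% of the 3422 genes are present in each counted cell.

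Cells with neighbouring numbers resembled each other. Joining cells at a mean correlation of 0.4 over all genes except the 8 gave 20 sets, of which 4 held cells of more than 1 population. Split by population, these made 6 OligNBL, 4 OL, 5 NBL, 4 O and 6 NB sets, numbered here within each population. The joined sets were NBL set 1 with NB set 3 (13 cells), NBL set 2 with NB set 5 (9 cells) and OL set 4 with O set 3 (12 cells). The remaining one held OligNBL set 2, O set 1 and NB set 2 (4 cells). Such sets thus cross between lesioned and healthy mice. O set 1 and NB set 2 held 1 cell each, and OligNBL set 2 and NBL set 1 held 2 cells each. Weighting sets equally, as is done below, gives these few cells the weight of whole sets. Examples are Nrep at 4.91 in O set 1 and Dcx at a mean of 13.27 in OligNBL set 2. In NB, sets took 81.4% of the variance of Dcx between cells, 93.7% of that of Igfbpl1 and 83.4% of that of Islr2, against a median of 20.5% over 3062 other genes. In OligNBL they took 82.6% for Dcx, and in NBL 84% for Nrep and 75.5% for Tubb3. Other members varied less by set than the median gene: sets took 10.3% for Stmn2 and 12.7% for Igfbpl1 in OligNBL (median 26.3%), 4.21% for Igfbpl1 and 15.8% for Cd24a in NBL (median 22.1%) and 7.57% for Nrep in NB. The labels do not say whether a set is a mouse, a plate or a cell state, and this was not tested.

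**Figure D1:**
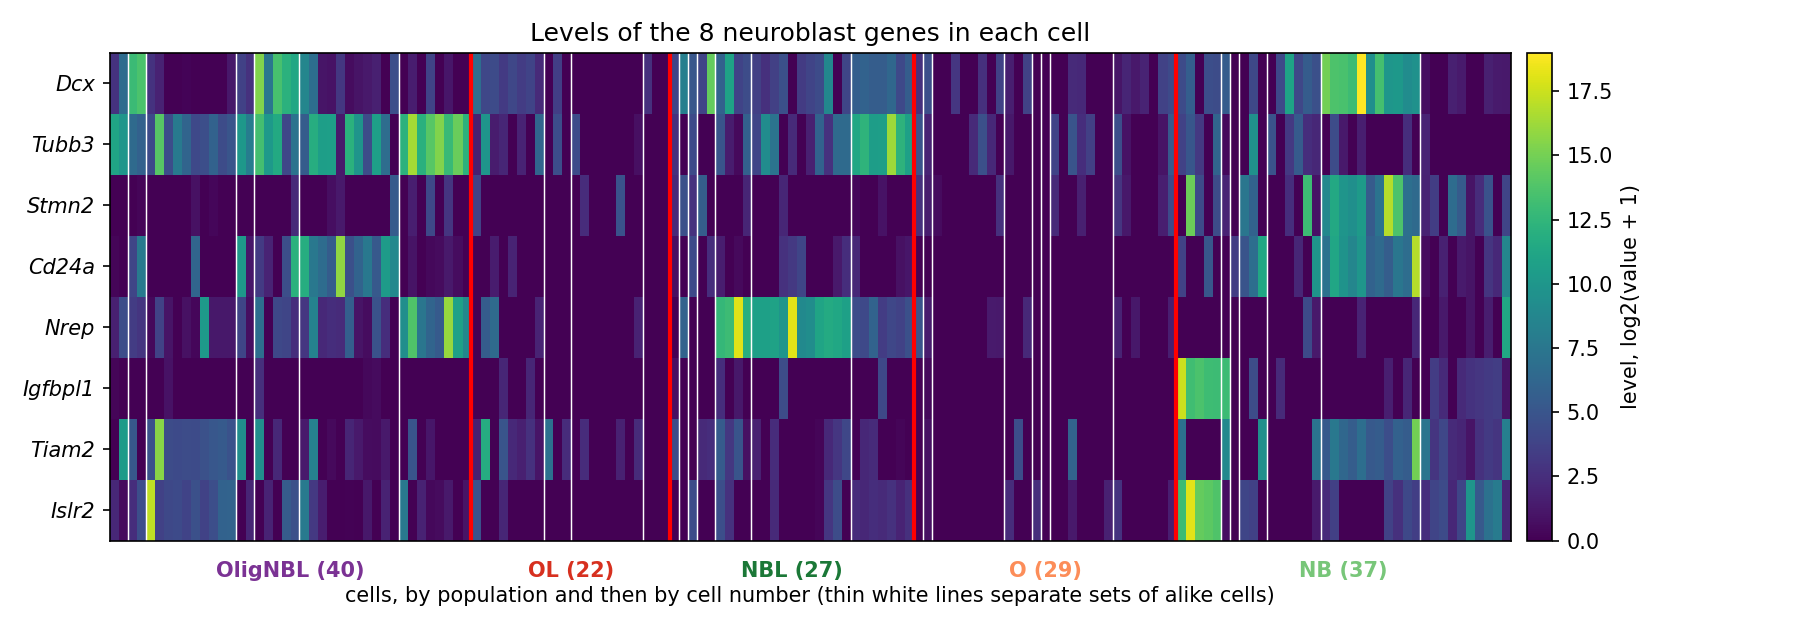
Level, as log2(value + 1), of the 8 genes (rows) in each of the 155 cells (columns), ordered by population and cell number; white lines mark a change of set and red lines a change of population. Blocks of neighbouring cells share members, such as Dcx, Stmn2, Cd24a and Tiam2 in NB cells 35 to 45 and Nrep in NBL cells 66 to 77.

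Dcx, the microtubule-stabilizing protein of migrating neuroblasts, was present in most NBL cells and, in OligNBL and NB, to an extent that varied by set. Its lowest, median and highest levels were 0, 1.38 and 15.35 in OligNBL, 0, 0 and 6.88 in OL, 0, 4.43 and 14.52 in NBL, 0, 1.09 and 4.54 in O, and 0, 4.35 and 18.99 in NB. All 5 ranges overlapped. It was present in 13 of 40 OligNBL cells (32.5%, exact 95% interval 18.6 to 49.1%), 5 of 22 OL cells, 23 of 27 NBL cells (85.2%, 66.3 to 95.8%), 5 of 29 O cells and 20 of 35 NB cells (57.1%, 39.4 to 73.7%). These intervals, like those below, cover counting error alone and treat cells as independent. NBL set means of Dcx lay between 3.52 and 8.88, and sets took 34.7% of its variance there, against a median of 22.1% over other genes. In NB it varied by set: 11 cells of NB set 6 (cells 35 to 45) lay between 9.24 and 18.99, while the 11 cells of NB set 3 did not pass 1.71. The other NB set means were 3.79 in set 1, 5.54 in set 2, 1.38 in set 4 and 4.89 in set 5. OligNBL also varied by set, with means of 13.27 in set 2 (2 cells) and 11.96 in set 4 (5 cells). Its other means were 3.97 in set 1, 2.70 in set 5, 0.80 in set 6 and 0.60 in set 3 (10 cells).

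Tubb3, the neuronal beta-tubulin, was the member present in nearly every OligNBL cell. Levels ran over 0, 9.91 and 16.42 (lowest, median, highest) in OligNBL, 0, 0 and 9.82 in OL, 0, 4.91 and 16.20 in NBL, 0, 0 and 5.33 in O, and 0, 0 and 9.50 in NB. It was present in 38 of 40 OligNBL cells (95%, 83.1 to 99.4%), 4 of 22 OL cells, 16 of 27 NBL cells (59.3%, 38.8 to 77.6%), 7 of 29 O cells and 6 of 35 NB cells (17.1%, 6.56 to 33.6%). Means in OL, O and NB lay from 1.49 to 1.56. Each of the 6 OligNBL sets held it, with means from 6.07 to 13.71; in NBL it was highest in set 5, where 7 cells lay between 10.56 and 16.20. The predicted gene Gm20388 spans Tubb3 on the same strand, and Tubb3 has near-identical tubulin relatives, so reads may have been split between them. Gm20388 itself stood at a mean of 0.15 in OligNBL, 1.40 in NBL and 2.62 in NB. With both genes summed, a step chosen after seeing the data, the level averaged 8.81 ± 4.07 in OligNBL, 1.53 ± 2.58 in OL, 6.49 ± 4.21 in NBL, 1.5 ± 1.92 in O and 3.98 ± 3.06 in NB, so the order of NB against OL and O depends on how these reads were assigned.

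Stmn2, a stathmin-family protein that binds tubulin in growth cones, was found mainly in NB. Levels were 0, 0 and 5.48 (lowest, median, highest) in OligNBL, 0, 0 and 4.79 in OL, 0, 0 and 5.62 in NBL, 0, 0 and 4.27 in O, and 0, 4.39 and 16.86 in NB. No cell outside NB reached 6. Stmn2 was present in 2 of 40 OligNBL, 2 of 22 OL, 2 of 27 NBL, 1 of 29 O and 19 of 35 NB cells, the last a share of 54.3% (36.6 to 71.2%). All 11 cells of NB set 6 carried it, between 5.42 and 16.86.

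Cd24a, a lipid-anchored sialoglycoprotein of the neuroblast surface, was at 0 in every O cell. Its lowest, median and highest levels were 0, 1.23 and 15.86 in OligNBL, 0, 0 and 1.91 in OL, 0, 0 and 4.25 in NBL, and 0, 3.36 and 16.86 in NB. It was present in 17 of 40 OligNBL cells (42.5%, 27 to 59.1%), in 0 of 22 OL cells (an upper 95% limit of 15.4%), 2 of 27 NBL cells, 0 of 29 O cells (upper limit 11.9%) and 19 of 35 NB cells. The OligNBL cells with Cd24a came foremost from set 5, whose 11 cells ran from 4.64 to 15.86, and the NB cells from set 6, whose 11 cells ran from 5.60 to 16.86. Processed copies of Cd24a exist in the mouse genome, so its values are uncertain where reads match several copies.

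Islr2, a membrane protein with leucine-rich repeats on growing axons, and Igfbpl1, a secreted relative of the insulin-like growth factor binding proteins, both peaked in NB cells 1 to 5. Islr2 had levels of 0, 1.87 and 17.16 (lowest, median, highest) in OligNBL, 0, 0 and 4.77 in OL, 0, 0.26 and 4.55 in NBL, 0, 0 and 2.75 in O, and 0, 2.60 and 18.14 in NB. It was present in 15 of 40 OligNBL, 1 of 22 OL, 3 of 27 NBL, 0 of 29 O and 15 of 35 NB cells. Igfbpl1 did not pass 2.53 in OligNBL, 2.07 in OL, 4.44 in NBL and 0.43 in O, against a highest level of 17.50 and a median of 0 in NB. It was present in 5 of 35 NB cells and in 0 of 40 OligNBL cells (upper 95% limit 8.81%). NB set 1 (cells 1 to 5) held both genes high in every cell, with Igfbpl1 between 13.05 and 17.50 and Islr2 between 12.99 and 18.14. These 5 cells had a median of 574 genes above 0, the fewest of the NB sets apart from set 4 with 540. Elsewhere the 2 genes parted: the single cell of NB set 2 held Igfbpl1 at 13.05 and Islr2 at 0.69. In the 11 cells of NB set 3, Islr2 was present in 7 and Igfbpl1 in 0. Islr2 overlaps Islr on the same strand and 1600029O15Rik on the other, neither of which was analysed here, and SMART-Seq2 does not mark strand.

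Tiam2 encodes an exchange factor that activates the small GTPase Rac1 in migrating neurons. It had levels of 0, 1.29 and 15.58 (lowest, median, highest) in OligNBL, 0, 1.36 and 11.76 in OL, 0, 0.83 and 5.48 in NBL, 0, 0 and 6.02 in O, and 0, 3.19 and 14.98 in NB. The gene was present in 16 of 40 OligNBL, 3 of 22 OL, 4 of 27 NBL, 2 of 29 O and 18 of 35 NB cells. The 10 cells of OligNBL set 3 all carried it between 4.26 and 15.58, and the 11 cells of NB set 6 between 4.45 and 14.98. Its 3′ part overlaps Tfb1m on the other strand, and reads from the overlap cannot be told apart; Tfb1m stood at a mean of 0.01 in OligNBL, 3.48 in OL, 0.03 in NBL, 0.17 in O and 1.37 in NB.

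Nrep, at 33437019 to 33464029 on the minus strand of chromosome 18, encodes a small protein known from regenerating neurons and had its highest median in NBL. Nrep levels were 0, 2.96 and 16.06 (lowest, median, highest) in OligNBL, 0, 0 and 6.53 in OL, 0, 9.29 and 18.14 in NBL, 0, 0 and 4.91 in O, and 0, 0 and 11.35 in NB. The NB median of 0 lay below the NBL median, although the ranges overlapped. Presence was 18 of 40 OligNBL cells (45%, 29.3 to 61.5%), 2 of 22 OL cells, 22 of 27 NBL cells (81.5%, 61.9 to 93.7%), 1 of 29 O cells and 2 of 35 NB cells. Not all NBL sets were high: means were 13.95 in set 3 and 11.25 in set 4, 4.37 in set 5, 2.01 in set 2 and 0.00 in set 1. NBL sets 1 and 2 were the ones that joined with NB cells. In OligNBL, set 6 stood apart with 8 cells between 5.4 and 16.06.

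**Figure D2:**
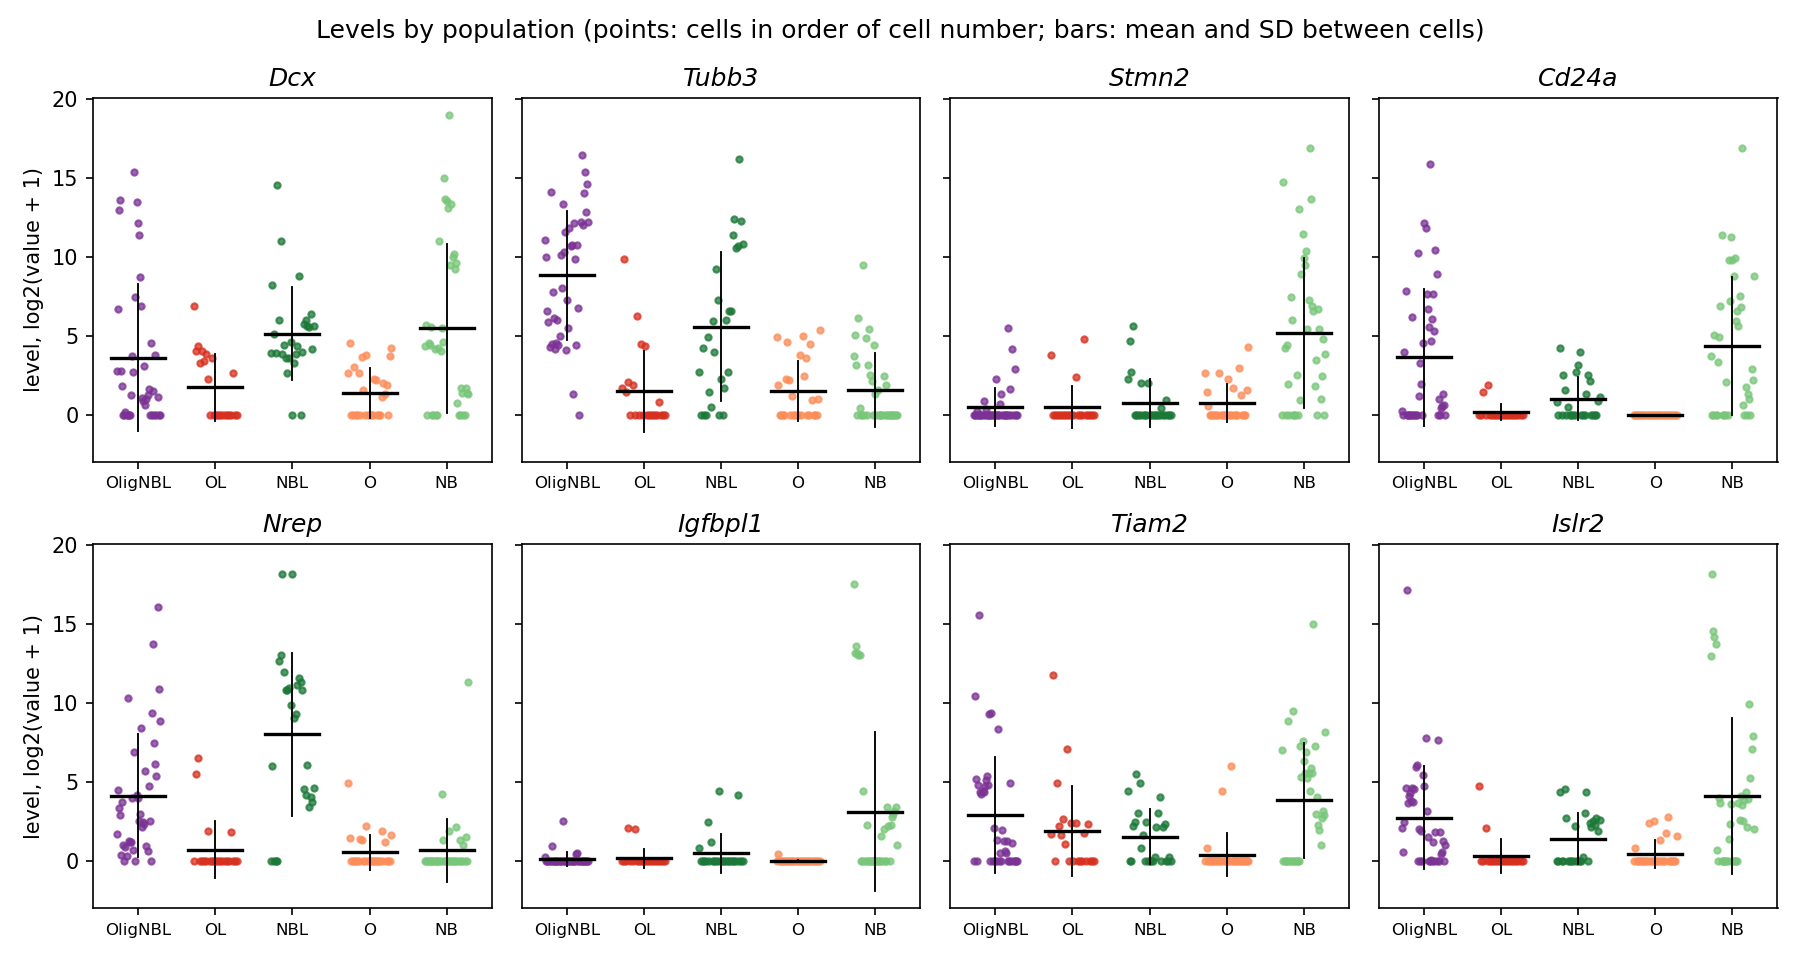
Level, as log2(value + 1), of each gene in each cell, by population; points are cells, horizontal bars the mean and vertical bars 1 SD between cells either way. NB alone reaches high Igfbpl1 and Stmn2, OligNBL and NBL reach high Tubb3 and Nrep, and the ranges of all populations start at 0.

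For all 8 genes, populations next to each other in the order of mean levels differed by less than the larger of their SDs between cells. Dcx averaged 3.61 ± 4.66 in OligNBL, 5.14 ± 2.95 in NBL and 5.46 ± 5.34 in NB. Tubb3 averaged 8.81 ± 4.07 in OligNBL, 5.57 ± 4.72 in NBL and 1.56 ± 2.32 in NB. Nrep averaged 4.14 ± 3.91 in OligNBL, 8.01 ± 5.18 in NBL and 0.67 ± 2.01 in NB. The SDs are wide because many cells were at 0 while others of the same population were high.

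A recurring shape within sets was 1 cell with a very high level and the others lower but mostly above 0. In 15 cases a member reached 14 in just 1 cell of a set (10 different sets), and 98.1% of the other cells of these sets then had it above 0, with a median level of 7.33. In the other sets of the same populations 285 of 411 cells (69.3%) had it above 0. The remaining genes of the table had the same shape in 2889 cases, with 92.1% of other cells in the set and 54.5% of cells in other sets above 0, so it was not a property of the 8 genes alone. Both comparisons are uneven by selection. A set of alike cells entered because the gene was high in 1 of its cells, while the other sets did not have to meet that condition. A single cell of OligNBL set 3 held Tiam2 at 15.58 and Tubb3 at 14.08, whereas the other 9 cells of that set held Tiam2 between 4.26 and 5.39 and Tubb3 between 4.17 and 7.75. Another cell of the same set held Islr2 at 17.16, with the other 9 cells between 3.64 and 6.06. In NBL, cell 71 of set 4 held Nrep at 18.14 above 10 cells between 9.05 and 11.58. The other cells were not always close together: they spanned more than 3 levels in 9 of the 15 cases. They ran from 5.42 to 13.66 for Stmn2 in NB set 6, 4.64 to 11.80 for Cd24a in OligNBL set 5, 5.4 to 13.74 for Nrep in OligNBL set 6 and 7.47 to 13.43 for Dcx in OligNBL set 4. The source of the lower values in such sets was not tested.

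**Figure D3:**
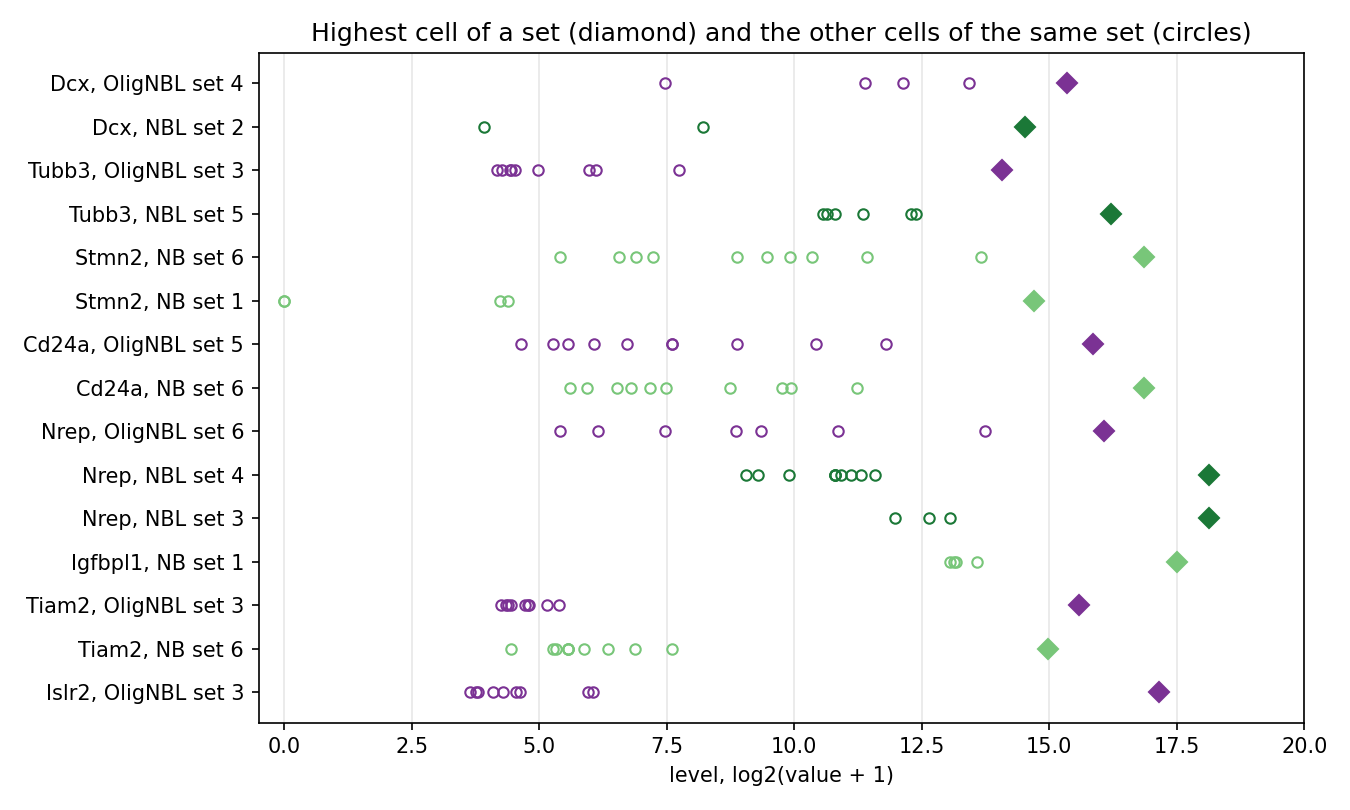
Level, as log2(value + 1), of a member in each cell of a set, for the 15 cases (gene and set, from 10 sets) where just 1 cell reached 14; the diamond is that cell and the circles are the other cells of the set. The other cells lie above 0 with 2 exceptions, both for Stmn2 in NB set 1, and span from 0.54 to 8.34 levels.

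Several members were present together in most cells sorted with GFP and in few sorted with Tomato alone. At least 2 of the 8 genes were present in 37 of 40 OligNBL cells (92.5%, 79.6 to 98.4%), 3 of 22 OL cells (13.6%, 2.91 to 34.9%), 25 of 27 NBL cells (92.6%, 75.7 to 99.1%), 3 of 29 O cells (10.3%, 2.19 to 27.4%) and 25 of 35 NB cells (71.4%, 53.7 to 85.4%). At least 4 were present in 13 of 40 OligNBL cells (32.5%), 1 of 22 OL cells (4.55%), 3 of 27 NBL cells (11.1%), 0 of 29 O cells (up to 11.9%) and 16 of 35 NB cells (45.7%). The NB share was 20.8% without NB set 6, and the single OL cell belonged to OL set 1. None of the 8 was present in 11 of 22 OL and 17 of 29 O cells, and no cell held more than 6. Presence was fixed at 14.6% of all genes in each counted cell, so some of any 8 genes can be present by the definition alone. The shares for other groups of 8 genes were not computed. With a level of at least 10 in place of presence, at least 2 genes were found in 22.5% of OligNBL, 0% of OL, 3.70% of NBL, 0% of O and 22.9% of NB cells. With any value above 0 the share was 100% in OligNBL, 54.5% in OL, 100% in NBL, 51.7% in O and 94.3% in NB, so the contrast with Tomato cells is smaller by that measure.

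**Figure D4:**
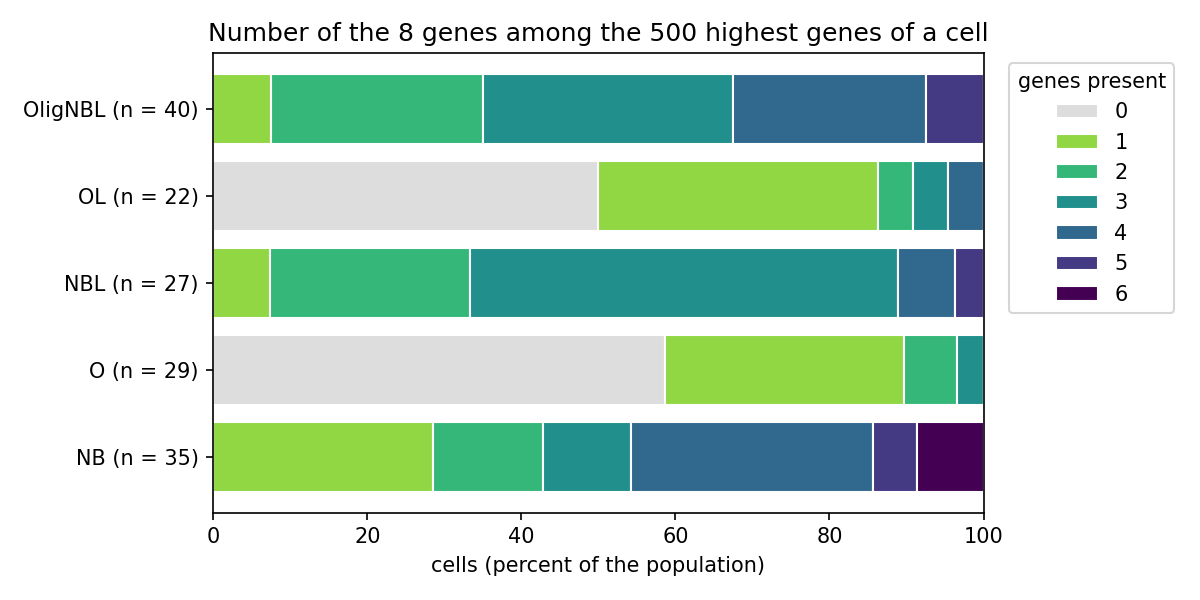
Share of cells (percent) by the number of the 8 genes present among the 500 highest of the cell, for each population, as stacked bars. OligNBL and NBL centre on 3 genes, NB spreads from 1 to 6, and OL and O lie mostly at 0 and 1.

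Cells with the same number of members held different ones. In OligNBL the combination Tubb3, Tiam2 and Islr2 occurred in 7 cells, Tubb3 with Cd24a in 5 and Tubb3 with Nrep in 5, each inside 1 set. In NBL the leading combination was Dcx, Tubb3 and Nrep, in 10 cells from 3 sets. In NB it was Dcx, Stmn2, Cd24a and Tiam2, in 8 cells of NB set 6, with Islr2 added in a further 2. Of the 28 possible pairs, Tubb3 and Nrep were present together in 18 of 40 OligNBL and 14 of 27 NBL cells, against 0 of 35 NB cells. Such counts depend on how common each gene was by itself. Tubb3 was present in 38 of 40 OligNBL cells, whereas NB held Tubb3 in 6 and Nrep in 2 cells. In NBL, Nrep was present in 87.5% of cells with Tubb3 and 72.7% of those without. Dcx and Tubb3 shared 12 OligNBL, 14 NBL and 4 NB cells. In OligNBL, Tubb3 was present in 92.3% of cells with Dcx and 96.3% of those without. These shares were 60.9% and 50% in NBL and 20% and 13.3% in NB. Dcx and Cd24a shared 8 OligNBL, 1 NBL and 15 NB cells, and Dcx and Stmn2 shared 2 OligNBL, 2 NBL and 13 NB cells. Cd24a was present in 75% of NB cells with Dcx and 26.7% of those without, and in OligNBL in 61.5% and 33.3%. Stmn2 was present in 65% of NB cells with Dcx and 40% of those without. In OligNBL all 10 cells with both Tiam2 and Islr2 belonged to set 3. Both members of a pair at a level of 10 or more was rare: of the 28 pairs, Igfbpl1 with Islr2 in all 5 cells of NB set 1 was the most frequent case, followed by Dcx with Stmn2 in 4 NB cells. As cells of a set share their members, these counts describe sets as much as cells.

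**Figure D5:**
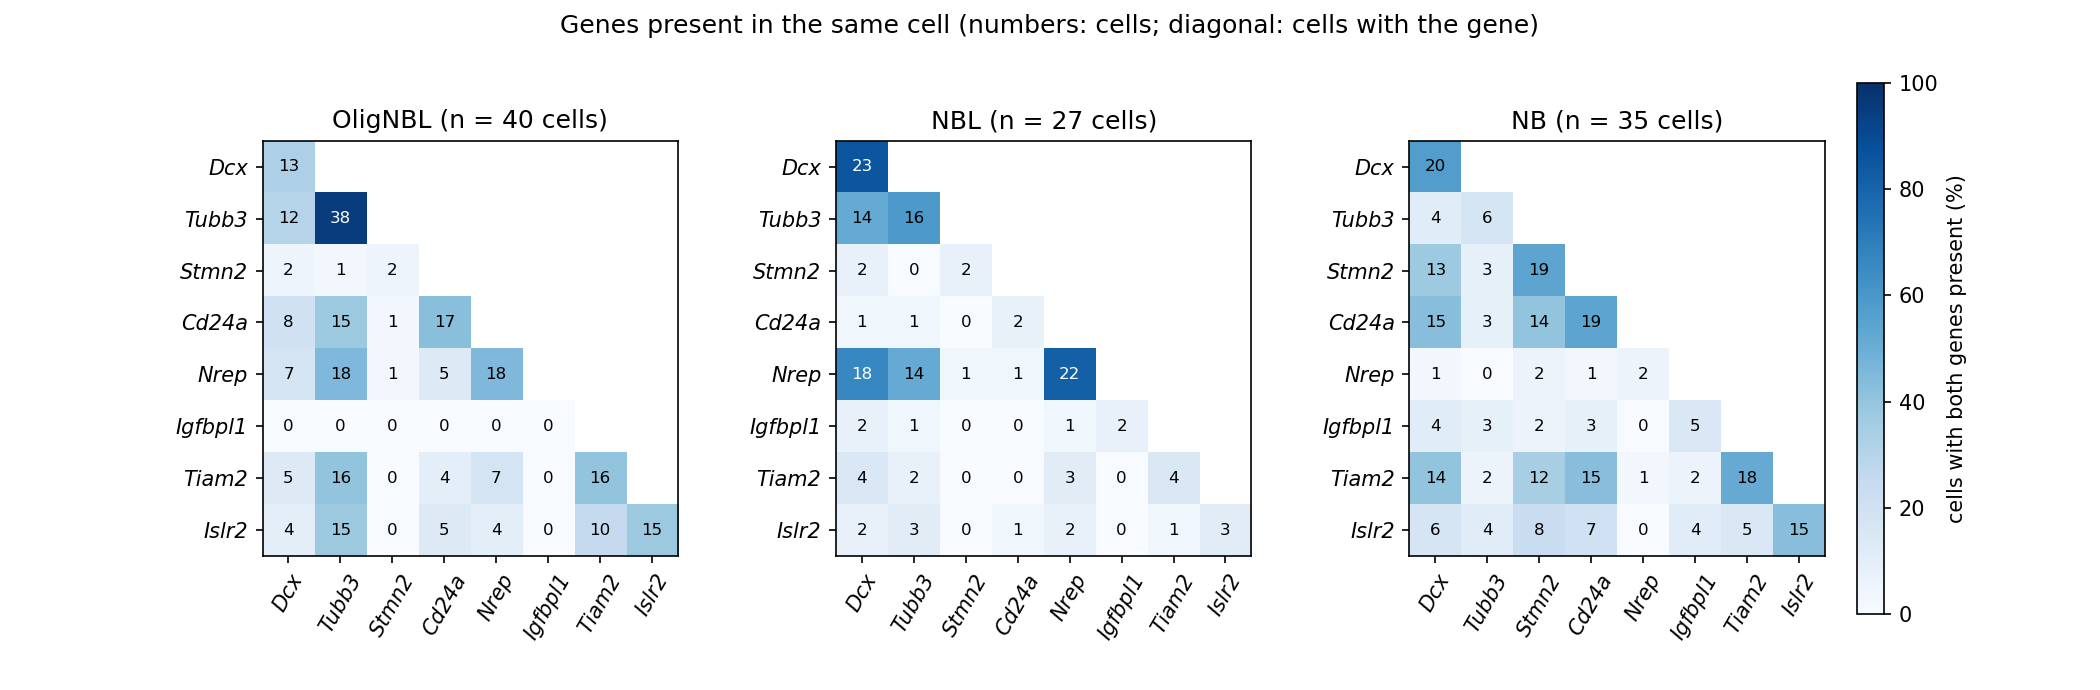
Number of cells in which both genes of a pair were present, for the 28 pairs in OligNBL, NBL and NB, with genes on both axes and each gene's own count on the diagonal; the shade is the share of cells (percent). Tubb3 pairs fill OligNBL, pairs of Dcx, Tubb3 and Nrep fill NBL, and pairs of Dcx, Stmn2, Cd24a and Tiam2 fill NB.

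OligNBL against OL compares, after the lesion, cells with both reporters with cells carrying the Tomato reporter alone. Tubb3 was higher by 7.32 (8.81 ± 4.07 in OligNBL and 1.49 ± 2.57 in OL), Cd24a by 3.49, Nrep by 3.42, Islr2 by 2.44 and Dcx by 1.87. Stmn2 and Igfbpl1 lay within 0.1 of each other, and Tiam2 was just under the call at 2.90 ± 3.67 in OligNBL and 1.91 ± 2.86 in OL. A difference of levels of at least 1 was the call, so 5 of the 8 genes were higher and 0 lower, where 27.3% of all genes were higher, 21.1% lower and 48.4% called either way. The median difference was 2.16 over the 8 genes and 0.13 over all genes. For Tubb3, Cd24a, Nrep and Islr2 the lowest set mean of OligNBL lay above the highest of OL, against 9.73% of all genes with set means apart in either direction. Cd24a was apart narrowly, at 0.48 in OligNBL set 6 and 0.42 in OL set 1, and with sets joined at 0.5 instead of 0.4, 0 members were apart. The Tubb3 difference exceeded both SDs, and the others did not. Dcx fell under the call without OL set 3 (0.88) or OligNBL set 4 (0.68) and stood at 3.17 without OL set 1 and 2.88 without OligNBL set 3. Islr2 stood at 1.42 without OligNBL set 3, Cd24a at 1.76 without set 5 and Nrep at 2.02 without set 6. The state of Tiam2 was unstable: it stood at 1.16 with sets weighted equally, 1.44 with runs of 8 cell numbers weighted equally, 1.98 in cells with at least 1000 genes above 0, 1.21 without its highest 2 cells and 1.76 without OL set 1, against 0.035 without OligNBL set 3. Dcx stood at 4.04 with sets weighted equally and 1.23 without cells in sets that join populations. With a pseudocount of 10, Cd24a stood at 2.07, Nrep at 1.84 and Islr2 at 1.11. Tubb3 summed with Gm20388 stood at 7.28.

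OligNBL against NBL compares both-reporter cells with GFP cells after the lesion. Tubb3 was higher by 3.24, Cd24a by 2.63, Tiam2 by 1.36 and Islr2 by 1.34, whereas Nrep was lower by a difference of -3.86 and Dcx by -1.53. Thus 4 of 8 were higher and 2 lower, where 25.7% of all genes were higher, 20.3% lower and 46% either way. The median over the 8 was 0.54, against 0.035 over all genes. For none of the 8 were set means apart, as for all but 6.2% of genes. Most of these calls rested on a single set. Tiam2 (0.40) and Islr2 (0.33) fell under the call without OligNBL set 3, Islr2 also without NBL set 4 (0.99), Cd24a without OligNBL set 5 (0.90), and Dcx without OligNBL set 3 (-0.52) or set 6 (-0.83). Without NBL set 4, Nrep stood at -1.63 and Dcx at -2.64, and without OligNBL set 4 Dcx stood at -2.72. Tubb3 stood at 5.50 without NBL set 5, 2.02 without OligNBL set 6 and 2.32 when summed with Gm20388. With a pseudocount of 10, Dcx (-0.37) and Islr2 (0.83) fell under the call. With sets weighted equally, Dcx stood at -0.21 and Nrep at -2.30.

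OligNBL against NB sets both-reporter cells of lesioned mice against GFP cells of healthy mice. Tubb3 was higher by 7.25, more than both SDs, and Nrep by 3.47, while Stmn2 (-4.68), Igfbpl1 (-3.00), Dcx (-1.85) and Islr2 (-1.36) were lower. Cd24a (-0.73) and Tiam2 (-0.95) were under the call. With Gm20388 added to Tubb3 that difference was 4.82. That is 2 higher and 4 lower of 8, where 27.5% of all genes were higher, 18.9% lower and 46.4% either way. Tubb3 and Nrep had every OligNBL set mean above every NB set mean and Stmn2 every one below, against 5.35% of all genes in either direction, and with sets joined at 0.5, 0 members were apart. The median over the 8 was -1.16 and that over all genes 0.077, and the median over the 8 turned to 0.65 without NB set 6. Dcx turned to 1.06 without NB set 6, and Islr2 to 0.29 without NB set 1. Dcx stood at -0.85, -3.05 and -1.15 without OligNBL sets 3, 4 and 6 in turn, and at -3.85 without NB set 3. Islr2 ranged from -2.38 to 0.29 over all sets left out, with -0.86 without OligNBL set 5. Igfbpl1 stood at -1.28 without NB set 1, Stmn2 at -2.76 without NB set 6 and Nrep at 2.08 without OligNBL set 6. Cd24a and Tiam2 passed the call under several settings, in opposite directions for Cd24a. Cd24a stood at -2.06 in cells with at least 1000 genes above 0, -1.22 in cells numbered above 21, -3.21 without cells in sets that join populations and -2.46 without OligNBL set 5, but at 1.12 without NB set 6. Tiam2 stood at -2.69 in cells with at least 1000 genes, -1.30 in cells numbered above 21, -1.14 with sets weighted equally, -1.81 without sets that join populations and -1.91 without OligNBL set 3. In cells with at least 1000 genes Islr2 stood at -0.13, Dcx at -3.12 and Igfbpl1 at -1.52, and Igfbpl1 at -0.90 in cells numbered above 21. Dcx stood at -0.90 with runs weighted equally and Islr2 at -0.69 without the 2 cells with under 500 genes. With a pseudocount of 10, Stmn2 stood at -2.94, Igfbpl1 at -1.91 and Nrep at 1.84.

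OL against O compares Tomato cells with and without the lesion. Of the 8, Tiam2 was called, at 1.91 ± 2.86 in OL and 0.39 ± 1.37 in O, a difference of 1.52. It fell to 0.75 without OL set 1, the set that also held all 5 OL cells with Dcx, to 0.65 with a pseudocount of 10 and to 0.51 in cells with at least 1000 genes above 0. Tfb1m, which overlaps Tiam2, differed in the same direction. Tfb1m averaged 3.48 in OL and 0.17 in O and was present in 13 of 22 and 0 of 29 cells. The part of reads from the overlap in the Tiam2 difference was not tested. Dcx reached the call without OL set 3, at 1.33, and Nrep with sets weighted equally, at -1.03. That Nrep value gives O set 1, a single cell at 4.91, the weight of a set. So 1 of 8 was higher and 0 lower, against 15.9% and 15.7% of all genes and 31.6% either way. The median difference was 0.16 over the 8 and -0.099 over all genes, and no member had set means apart, against 4.44% of all genes.

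NBL against NB compares GFP cells with and without the lesion. Nrep was higher by 7.34, more than both SDs, and Tubb3 by 4.01, while Stmn2 (-4.41), Cd24a (-3.36), Islr2 (-2.71), Igfbpl1 (-2.63) and Tiam2 (-2.31) were lower. Dcx averaged 5.14 ± 2.95 in NBL and 5.46 ± 5.34 in NB, a difference of -0.33 that rested on the sets included: it was -2.33 without NB set 3, 2.59 without NB set 6, -1.84 in cells with at least 1000 genes above 0 and -3.69 without cells in sets that join populations. With Gm20388 added, the Tubb3 difference was 2.51. Hence 2 were higher and 5 lower, where 17.4% of all genes were higher, 17.3% lower and 34.7% either way, and the median was -2.47 over the 8 and -0.0033 over all genes. Set means overlapped for all 8, and only 1.29% of all genes had them apart. The lower calls leaned on 2 NB sets. Without NB set 6, Stmn2 stood at -2.50, Cd24a at -1.51 and Tiam2 at -1.11, and without NB set 1, Islr2 stood at -1.05 and Igfbpl1 at -0.91, under the call. Tubb3 stood at 1.74 without NBL set 5. The median was -0.98 without NB set 1 and -1.31 without NB set 6. In cells numbered above 21, Igfbpl1 stood at -0.54, under the call, and Islr2 at -1.11. In cells with at least 1000 genes, Tubb3 stood at 6.07, Tiam2 at -3.82, Islr2 at -1.5 and Igfbpl1 at -1.05.

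O against NB compares the healthy Tomato and GFP cells. Stmn2 (-4.44), Cd24a (-4.37), Dcx (-4.07), Islr2 (-3.66), Tiam2 (-3.46) and Igfbpl1 (-3.10) were lower, and Cd24a by more than both SDs. Tubb3 (-0.06) and Nrep (-0.12) were not called. Tubb3 was called lower, at -2.48, once summed with Gm20388 and higher, at 1.05, in cells with at least 1000 genes, and Nrep higher, at 1.08, with sets weighted equally. The Nrep value again gives the single cell of O set 1 the weight of a set. In all, 0 were higher and 6 lower of 8, against 19.4% and 20.7% of all genes and 40.1% either way, with medians of -3.56 over the 8 and 0.094 over all genes. Igfbpl1 and Tiam2 had every O set mean below every NB set mean, against 6.02% of all genes in either direction, and with sets joined at 0.5, 0 members were apart. Without NB set 6, Dcx stood at -1.15, Stmn2 at -2.52, Cd24a at -2.53 and Tiam2 at -2.27. Without NB set 1, Igfbpl1 stood at -1.38 and Islr2 at -2.0.

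The other measured cytoskeletal and migration genes did not all follow the 8. Among 26 further microtubule genes, 14 were higher and 3 lower in OligNBL against OL, 12 and 5 against NBL, and 11 and 6 against NB. In OL against O 8 were higher and 1 lower, in NBL against NB 6 and 12, and in O against NB 3 and 15. The list medians, in the same order of comparisons, were 1.40, 0.61, 0.25, 0.22, -0.43 and -1.78, where the medians over all genes were 0.13, 0.035, 0.077, -0.099, -0.0033 and 0.094. In that order 27.3%, 25.7%, 27.5%, 15.9%, 17.4% and 19.4% of all genes were higher and 21.1%, 20.3%, 18.9%, 15.7%, 17.3% and 20.7% lower; the next 2 lists are read against the same values. Map1b, a microtubule-associated protein of growing axons, averaged 11.52 ± 3.54 in OligNBL, 4.23 ± 3.62 in OL and 7.78 ± 4.23 in NBL. Stmn1, the founding stathmin, went against Tubb3, at 1.18 in OligNBL, 6.24 in NBL and 9.12 in NB. Map2, a dendritic microtubule protein, was at 1.24 in OligNBL, 0.53 in NBL and 6.23 in NB, and the tubulin Tubb4a at 1.81 in OligNBL and 9.89 in OL. Map7d1 averaged 8.47 in NBL, against 0.18 in NB.

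Among 19 further actin, small GTPase and growth cone genes, 10 were higher and 4 lower in OligNBL against OL, 6 and 7 against NBL, and 11 and 2 against NB. NBL against NB had 10 higher and 1 lower, OL against O 3 and 7, and O against NB 7 and 4. The medians were 1.06 for OligNBL against OL, 0.052 against NBL and 1.10 against NB, and -0.35 for OL against O, 1.09 for NBL against NB and 0.43 for O against NB. Actg1, a cytoplasmic actin, averaged 8.86 in OligNBL, 1.85 in OL and 2.91 in NB. Marcksl1, an actin-binding membrane protein, averaged 5.22 in OligNBL, 7.63 in NBL and 1.66 in NB. Gsn, an actin-severing protein that oligodendrocytes also express, averaged 0.24 in OligNBL and 6.72 in OL.

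Among 13 further migration, adhesion and guidance genes, 7 were higher and 2 lower in OligNBL against OL, 6 and 2 against NBL, and 6 and 4 against NB. OL against O had 1 and 1, NBL against NB 5 and 3, and O against NB 2 and 4. The medians were 1.81 for OligNBL against OL, 0.95 against NBL and 0.23 against NB, and 0.050 for OL against O, 0.25 for NBL against NB and 0.25 for O against NB. Plxna2, a semaphorin receptor, averaged 7.90 in OligNBL, 0.66 in OL, 1.26 in NBL and 1.0 in NB. Slit1, a secreted repellent of the guidance system, averaged 4.73 in OligNBL, 0.11 in OL, 1.51 in NBL and 0.07 in NB. Cdh2, the cadherin N-cadherin, averaged 0.68 in OligNBL, 7.64 in NBL and 4.68 in NB.

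Markers of the oligodendrocyte lineage differed between the populations. Of 7 measured oligodendrocyte progenitor genes, at least 1 was present in 30 of 40 OligNBL, 8 of 22 OL, 9 of 27 NBL, 14 of 29 O and 6 of 35 NB cells. Because 14.6% of all genes are present in each counted cell, a list of genes can have 1 present by the definition alone. The share for other lists of this size was not computed. Against OL, 4 of the 7 were higher in OligNBL and 1, Sox10, was lower (0.58 in OligNBL and 4.47 in OL). Of all genes, 27.3% were higher and 21.1% lower in that comparison. Among the 37 OligNBL cells with at least 2 of the 8 genes, 28 also held a progenitor gene, as did 2 of the 3 OligNBL cells with fewer. The summed level of this list ran from 0 to 20.19 in OligNBL, 0 to 13.74 in OL, 0 to 12.60 in NBL, 0 to 18.14 in O and 0 to 8.85 in NB. Of 15 mature oligodendrocyte genes, at least 1 was present in 4 of 40 OligNBL, 22 of 22 OL, 6 of 27 NBL, 29 of 29 O and 8 of 35 NB cells, with summed levels up to 6.34 in OligNBL, 21.40 in OL, 9.77 in NBL, 20.67 in O and 6.12 in NB. Mbp, which encodes a major myelin protein, was present in 0 of 40 OligNBL cells. All 3 OL and all 3 O cells with at least 2 members also held mature oligodendrocyte genes, as did all OL and O cells with fewer. The part of doublets in such cells was not tested.

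EGFP was present in 12 of 40 OligNBL, 2 of 22 OL, 7 of 27 NBL, 1 of 29 O and 26 of 35 NB cells, and Gad1 in 22 OligNBL, 2 OL, 2 NBL, 1 O and 17 NB cells. The strain named for OL and O carries the Tomato reporter, with no EGFP transgene in its name. Both OL cells with EGFP also held Dcx, and the O cell did not. Likewise, Tomato was present in 2 NBL cells and 1 NB cell of the GFP strain. The source of these reporter values was not tested. In NBL, 25 of 27 cells held at least 2 members while 7 held EGFP. Pecam1, the sole measured endothelial marker, was present in 91.4% of NB cells and in no smaller share of any other population. Of mature neuron markers Snap25 alone was measured, present in 6 of 40 OligNBL, 6 of 22 OL, 0 of 27 NBL, 18 of 29 O and 0 of 35 NB cells. Of the astrocyte and stem cell list Fabp7 alone was measured, present in 9 of 40 OligNBL, 0 of 22 OL, 3 of 27 NBL, 0 of 29 O and 2 of 35 NB cells. Of 10 listed microglia genes and 5 listed ependymal genes, 0 were among the 3422 genes used, so these cell types could not be checked. The part of other cell types in the member levels was not tested.

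Likeness to a member was measured by Spearman's rho over all genes of the table, a comparison of 7 other members with the rest of the table. Over the 155 cells, which share sets, populations and a common scale, the genes most like Dcx were Ehmt1 (0.64), Acbd5 (0.62) and H3f3a (0.57), and those most like Tubb3 were Rrp1 (0.67), Gm21988 (0.66) and Nfib (0.64). Nrep was closest to Nfib (0.65), to Tubb3 (0.57) and to Myh10 (0.56), and was the only member with another member among its 3 nearest genes. Stmn2 was closest to Mast2 (0.52), Cd24a to Lsm1 (0.63), Igfbpl1 to Prps2 (0.57), Tiam2 to Tspyl2 (0.62) and Islr2 to Enox1 (0.61). Tubb3 and Nrep, at 0.57 over all cells, had a Pearson r of 0.16 once set means were removed, and Dcx and Ehmt1 one of 0.59.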

How the data were processed

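The deposited table is named for estimated counts, but its values behave as a normalized signal and were treated as such; per the submitters' processing notes, kallisto, limma and GRCm38 were used, with versions not given in the sources used here. A count test was therefore not used. The 8 genes and all gene lists were chosen with earlier results of these data known. Each cell's lowest value was set to 0 (in 1 NB cell the zeros had been replaced by a small tied value). Levels are log2(value + 1), given as the mean and SD between cells. A gene was present if above 0 and among the cell's 500 highest, with exact Clopper-Pearson 95% intervals. A difference of levels of at least 1 was called, over all 3422 genes. Sets of alike cells came from average linkage at a mean correlation of 0.4, without the 8 genes. Named genes were all 8 members, the 3 genes most like each, EGFP, Gad1, and up to 4 genes per list and comparison with the largest differences, given a mean level of at least 1; Mbp was added as a defining marker; not every gene this rule picks is reported here. Alternatives changed the pseudocount, the cells, their weighting, the sets and the definition of presence. The step that takes differences was run on levels shuffled over cells, with a constant added to some genes. This checks the arithmetic alone, as the outcome follows from the constant. Scripts ran in Python 3.11.15 (scipy 1.17.1, numpy 2.4.6, matplotlib 3.10.9, pandas 2.3.3).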

Additional observations from a re-analysis of the deposited data

How the results depend on the processing

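No paired analysis was possible because no label ties cells of different populations to a shared mouse or batch. The depth of single cells is unknown, so a gene at 0 was not detected rather than absent, and with 1 sample per population no difference has a replicate check. Among population medians and shares, 92 values under other settings kept within the spread or within 1.5 times and 45 did not; for single genes 401 kept, 29 moved and 2 reversed. A single gene counted as kept if its call held and it moved by less than the larger SD between cells. Large moves could thus count as kept, such as Dcx from 1.87 to 4.04 in OligNBL against OL with sets weighted equally. Some kept values could not move: adding Gm20388 changes Tubb3 alone, and leaving out the 2 NB cells changes comparisons with NB alone. Definitions of presence moved the shares most. Some settings (a level of at least 10, sets joined at 0.5, leaving out sets that join populations, and every setting of the share with at least 2 genes) were chosen after seeing the data.

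The median difference over the 8 genes was 1.35 for OligNBL against NBL over the 6 genes with a mean level of at least 1. For OligNBL against NB it was -0.84 with a pseudocount of 10, -0.54 with sets weighted equally and -0.92 with runs of 8 cell numbers weighted equally, and for NBL against NB -0.85 in cells numbered above 21. In OligNBL against NB, Dcx turned to 0.77 with sets weighted equally and Islr2 to 0.27 in cells numbered above 21.

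Shares among the 1000 highest genes rest on cells with at least 1000 genes above 0. These were 38 OligNBL, 9 OL, 22 NBL, 21 O and 21 NB cells. Those among the 250 highest rest on 37 NB cells, so the cells change along with the definition. The share with at least 4 genes among the 250 highest, among the 1000 highest, at any value and at a level of at least 10 was 5.00%, 60.5%, 85.0% and 0% in OligNBL, 0%, 77.3%, 74.1% and 0% in NBL, and 16.2%, 95.2%, 80% and 0% in NB. It was 0% in OL among the 250 highest, at a level of at least 10 and in the 9 cells with at least 1000 genes above 0, 19% in O among the 1000 highest and 17.2% at any value, and 88.2% in NB without sets that join populations. The share with at least 2, in the same order, was 55%, 100%, 100% and 22.5% in OligNBL, 51.9%, 100%, 100% and 3.70% in NBL, and 0%, 42.9%, 51.7% and 0% in O. It was 55.6% among the 1000 highest, 54.5% at any value and 0% at a level of 10 in OL, and 100%, 94.3% and 22.9% in NB, with 100% without sets that join populations. With sets joined at 0.5, 0 genes had set means apart in OligNBL against OL, OligNBL against NB and O against NB.

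Leaving out each set in turn, the median ranged from 1.57 to 2.96 for OligNBL against OL, 0.093 to 0.65 for OligNBL against NBL, -1.71 to 0.65 for OligNBL against NB, -0.32 to 0.36 for OL against O, -2.99 to -0.98 for NBL against NB and -4.08 to -2.40 for O against NB. The share with at least 4 genes ranged from 28.6% to 37.9% in OligNBL, 0% to 7.14% in OL, 8.00% to 15% in NBL, 0% to 0% in O and 20.8% to 62.5% in NB. In OligNBL against NB, Dcx ranged from -3.85 to 1.06 and Islr2 from -2.38 to 0.29. For single genes, a call ended or reversed in 14 cases. Each case is 1 gene, 1 comparison and 1 set left out, so some calls count more than once. Over all single genes and sets left out, 462 values kept, 32 moved and 2 reversed, with values that newly reached the call among those moved. The cause of these changes was not tested.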
